A study of Mus musculus with 4 samples.

Results

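Interferon-gamma and the proteins that carry its signal were examined as 7 genes in single cells of mouse 4T1 tumours. The genes were Ifng, which encodes the cytokine, Ifngr1 and Ifngr2, which encode the chains of its receptor, Jak1 and Jak2, which encode the kinases bound to those chains, and Irf1 and Socs1, which encode an early transcription factor and an inhibitor made in response. They were chosen by symbol, and all 7 were found among the 55450 genes of the matrix. Their values are UMIs, unique molecular identifiers that count captured RNA molecules, in 32133 of 33064 barcodes. The kept barcodes held at least 300 genes and at most 15% mitochondrial UMIs. A level is given as CPM, which divides the gene's summed UMIs in a type and library by all UMIs of those cells and scales to 1000000, with an exact 95% Poisson interval. These intervals, and the exact binomial ones beside shares, cover counting error only.

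4T1 is a mammary carcinoma line of BALB/c mice. Each mouse, female and 6 to 8 weeks old, carried 1000000 of these cells in the right flank in 25 μl PBS, was injected into a vein on day 7, was lit for 5 min at 980 nm and 1.0 W cm-2 on days 8, 9 and 10, and gave its tumour on day 13. By the records 2 samples had received PBS and 1 had received TIOs (group TIOs+NIR3), nanoparticle-loaded macrophages killed by freezing that are meant to lyse tumour cells under light, and 1 sample was left without a group because its title and its protocol disagreed. PBS and TIOs samples shared the tumour line, the host and the light. How many mice each sample pooled was not given in the sources used here.

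The barcodes carried 4 suffixes, called libraries 1 to 4 here. No source used here ties a suffix to a sample, so no treatment was compared, no p-value was computed, and each library stands as 1 sample of unknown treatment. Median depth was 11698, 2641.5, 2695 and 7182 UMIs per kept cell in libraries 1 to 4. Between 11 and 23 barcode sequences were shared by any pair of libraries. A gate on marker genes typed 26043 cells (81.0%), and 15 types held at least 50 cells. Every marker of every panel was higher in its own type than in the other gated cells, which the gate itself favours. By the methods the cells had been sorted for CD45, yet 8853 kept cells (27.6%) were gated as tumour cells, fibroblasts, pericytes or endothelial cells. Ptprc, which encodes CD45, was at 8.53 CPM in pericytes, 9.50 in endothelial cells, 10.1 in tumour cells and 19.03 in fibroblasts, against 711 CPM in neutrophils and 1358 CPM in NK cells. The libraries also differed in make-up, since 3897 of the 4089 tumour cells and 237 of the 255 CD8 T cells were in library 1. Library 3 held no tumour cell, and library 4 held 1.

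Interferon-gamma is made chiefly by NK cells and by activated T cells, and interleukin-12, interleukin-18 and the transcription factors T-bet (Tbx21) and Eomes promote its transcription. Its receptor pairs a ligand-binding chain, IFNGR1, with a chain that is needed for signalling, IFNGR2. JAK1 sits on the first and JAK2 on the second. The response runs through GAS elements in target promoters, among them that of Irf1, and IRF1 in turn acts on ISRE-type elements. SOCS1 blocks the kinases and closes the loop. In tumours the pathway is known for antigen presentation, for T cell-attracting chemokines and for PD-L1.

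The promoters of the response genes show these elements in letters. They are the 250 bases before the annotated start from RefSeq on GRCm38.p6, written 5′ to 3′ on the gene's strand, for Irf1 at chr11:53769764-53770013 on the plus strand and for Socs1 at chr16:10785537-10785786 on the minus strand. Capitals mark a match to TTCNNNGAA (GAS) in Irf1 and 2 overlapping matches to an ISRE-type pattern (GAAA, any 2 bases, GAAA) in Socs1.
Irf1: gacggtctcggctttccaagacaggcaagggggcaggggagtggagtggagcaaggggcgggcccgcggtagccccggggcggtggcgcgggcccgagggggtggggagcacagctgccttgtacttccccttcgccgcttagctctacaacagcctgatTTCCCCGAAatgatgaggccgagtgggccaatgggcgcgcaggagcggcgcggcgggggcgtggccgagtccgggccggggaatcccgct
Socs1: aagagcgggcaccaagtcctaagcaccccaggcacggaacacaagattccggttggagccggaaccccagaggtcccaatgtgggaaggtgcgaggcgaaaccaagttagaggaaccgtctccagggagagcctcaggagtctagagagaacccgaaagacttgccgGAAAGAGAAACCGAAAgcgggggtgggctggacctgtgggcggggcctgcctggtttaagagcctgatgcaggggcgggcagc
The Irf1 match began 90 bases before the start, and the farther of the 2 matches in Socs1 began 83 bases before it. Both strands were searched. The GAS pattern was in 7.02% and the ISRE-type pattern in 2.98% of 32851 promoter windows of this length. Ifng held 1 GAS match, 249 bases before its start, and the windows of Ifngr1, Ifngr2, Jak1 and Jak2 held no match to either pattern. A second RefSeq window of Irf1 held none either.

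By GENCODE vM21 on GRCm38 the 7 genes are protein-coding and lie apart from each other. Ifng (ENSMUSG00000055170) spans 118441046 to 118445892 and Ifngr1 (ENSMUSG00000020009) spans 19591949 to 19610229, both on the plus strand of chromosome 10. Ifngr2 (ENSMUSG00000022965, 91547072 to 91565623, plus strand) and Socs1 (ENSMUSG00000038037, 10782240 to 10785536, minus strand) are on chromosome 16. Jak1 (ENSMUSG00000028530) is on chromosome 4 from 101152367 to 101265282 on the minus strand, Jak2 (ENSMUSG00000024789) on chromosome 19 from 29251828 to 29313080, and Irf1 (ENSMUSG00000018899) on chromosome 11 from 53770014 to 53778374, both on the plus strand. Jak1 overlaps Raver2, and Irf1 overlaps Gm17334, each on the opposite strand. Ifng overlaps the transcript Gm49751 on its own strand, and Jak1 the pseudogene Gm12785. The treatment of overlapping genes in the counting was not described, which leaves the values of these 3 genes uncertain to that extent.

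The cytokine itself was a transcript of few cells. The kept cells held 2680 Ifng UMIs in 642 cells, and T and NK cells, 1238 cells in all, held 73.7% of them (71.9 to 75.3%). By library the share of T and NK cells was 79.0% of 1941 UMIs in library 1, 60.2% of 93 in library 2, 52.0% of 152 in library 3 and 61.9% of 494 in library 4. CD8 T cells alone held 49.1% of all Ifng UMIs and NK cells 13.3%, an order that rests on library 1. By library CD8 T cells held 67.2%, 4.30%, 0% and 1.42% of the UMIs in libraries 1 to 4, and NK cells held 2.78%, 43.0%, 20.4% and 46.8%. Without library 1 CD8 T cells held 1.49% (11 of 739 UMIs, in 18 cells) and NK cells 40.9%. Another 438 UMIs (16.3%) were in cells that no gate took.

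CD8 T cells of library 1 stood at 976 CPM of Ifng (923 to 1030), from 1304 UMIs in 180 of 237 cells. The other libraries held 18 CD8 T cells between them, too few for a level. Library 2 had 7 NK cells, which held 40 of its 93 Ifng UMIs. NK cells stood at 192 CPM in library 1, 163 in library 3 and 356 in library 4, and the intervals of libraries 1 and 3 (145 to 251 and 111 to 231) overlapped while that of library 4 (311 to 405) lay above both. CD4 T cells were lower, at 47.0, 4.92, 42.5 and 92.9 CPM in libraries 1 to 4. These levels rested on 5, 2, 36 and 62 UMIs in 2, 1, 7 and 16 cells. T cells with none of the subset markers stood at 332 CPM in library 1 and at 9.12 and 39.9 CPM in libraries 3 and 4. Regulatory T cells, which restrain other T cells and are marked by Foxp3, stood at 137, 2.75 and 5.07 CPM in libraries 1, 2 and 3, from 14 UMIs in all 4 libraries. CD8 T cells of library 1 were thus above every other type. Without that library the pooled level of CD8 T cells was 155 CPM in place of 936, and NK cells had the highest level. The levels of NK cells (163 to 356 CPM) were above those of CD4 and regulatory T cells, but some intervals overlapped. Regulatory T cells of library 1 rested on 11 UMIs in 26 cells, and their interval overlapped those of NK cells in libraries 1 and 3. That of CD4 T cells in library 4 (71.2 to 119) reached that of NK cells in library 3. Unassigned T cells of library 1 fell inside the range of NK cells, and the ranges of CD4, unassigned and regulatory T cells overlapped.

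Outside lymphocytes Ifng was close to the limit of detection. No UMI was seen in 292 endothelial cells, 154 pericytes, 253 dendritic cells, 137 plasmacytoid dendritic cells or 60 basophils or mast cells, where a limit of 3 counts for a count of 0 allows up to 0.483, 0.985, 1.16, 3.23 and 12.0 CPM. Neutrophils held 6 UMIs in 8592 cells, or 0.349 CPM. Monocytes stood at 0.793 CPM, macrophages at 1.23, fibroblasts at 0.561 and tumour cells at 1.52 over all libraries. Tumour cells of library 1 held 132 UMIs in 105 of 3897 cells. Of these, 98 cells held 1 UMI, and 6 of the 7 cells with 2 or more UMIs also held 2 or more T or NK markers, which was so for 10.2% of the cells with 1 UMI and for 4.22% of tumour cells with no Ifng UMI. In fibroblasts all 3 cells with 2 or more Ifng UMIs held such markers, against 20.5% of those with 1 UMI and 10.49% of those with none, and 1 cell had 22 of the 72 UMIs.

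**Figure D1:**
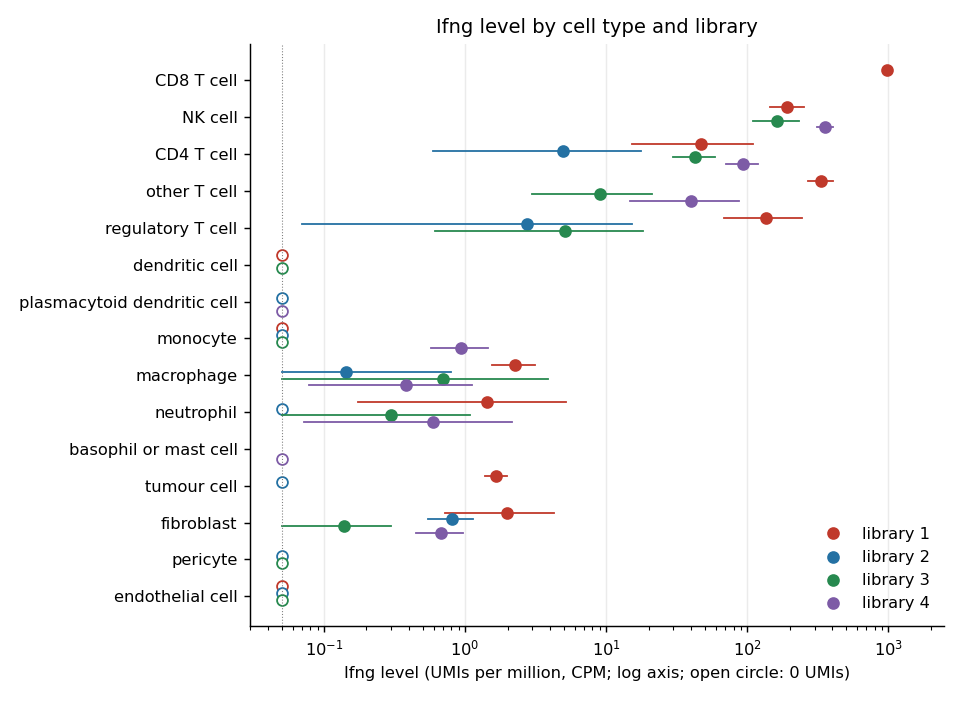
Level of Ifng in CPM (log axis) for each cell type with at least 20 cells in a library, coloured by library, with exact 95% Poisson intervals, which are cut at 0.05 on the left. Open circles at 0.05 stand for 0 UMIs. CD8 T cells of library 1 at 976 CPM and NK cells at 163 to 356 CPM lie apart from every type outside the T and NK cells, which stayed at 2.25 CPM or below.

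Shares of cells gave the same picture and depended on depth. An Ifng UMI was found in 75.9% of CD8 T cells of library 1 (70.0 to 81.2%), at a median of 4637 UMIs per cell. The background is shown by types that should lack the transcript, 0.263% of neutrophils of library 1 at a median of 1567 UMIs and 2.69% of its tumour cells at 18678. After thinning every cell to 1000 UMIs the shares were 41.7% of CD8 T cells, 0.325% of neutrophils and 0.182% of tumour cells. In NK cells they were 22.7%, 18.5% and 24.8% after thinning in libraries 1, 3 and 4, with overlapping intervals, and 36.4%, 33.3% and 57.8% before it.

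Ifng was spread unevenly over the CD8 T cells. The highest cell held 126 UMIs, the median among the cells with a UMI was 4, and 25 cells held 50% of the 1304 UMIs. NK cells held fewer Ifng UMIs, with at most 29 in a cell, but these were unevenly spread too. Of 187 NK cells, 13 held 50% of the 356 UMIs. To see what moved with Ifng inside these cells, the CD8 T cells of library 1 were thinned to 2000 UMIs, which left 133 cells with an Ifng UMI and 92 without. Before thinning only 57 of 237 cells held no Ifng UMI, so some of the 92 had lost theirs in the draw. With and without Ifng below refer to the thinned counts, which blurs the contrast. Ifngr1, Jak1, Irf1 and Socs1 were at like levels in both. Ifngr2, with 1 UMI in the cells with Ifng and 0 in the others, and Jak2, with 11 and 4, had too few UMIs to be tested. Ifngr1 stood at 436 CPM with and 413 CPM without Ifng, Jak1 at 259 and 299, Irf1 at 162 and 190, and Socs1 at 308 and 315, and all 4 pairs of intervals overlapped. Of 1268 genes tested, 0.71% were at least 2-fold higher in the cells with Ifng and 0.237% at least 2-fold lower. Il18rap, a chain of the interleukin-18 receptor, was 1 of the higher ones at 150 against 65.2 CPM, but its intervals (107 to 205 and 33.7 to 114) overlapped. Il18r1, the other chain of that receptor, stood at 154 against 158 CPM. Cxcl10, a chemokine induced by interferon, was also higher, at 402 against 92.4 CPM. They were the only ones among 4 inducers of Ifng and 9 targets of the pathway that could be tested. The medians of these lists were -0.06 and -0.01 on the log2 scale. The Cxcl10 UMIs lay in few cells, 26 of the 133 with Ifng and 13 of the 92 without. These cells come from 1 library, and the fold was taken after adding 10 CPM.

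**Figure D2:**
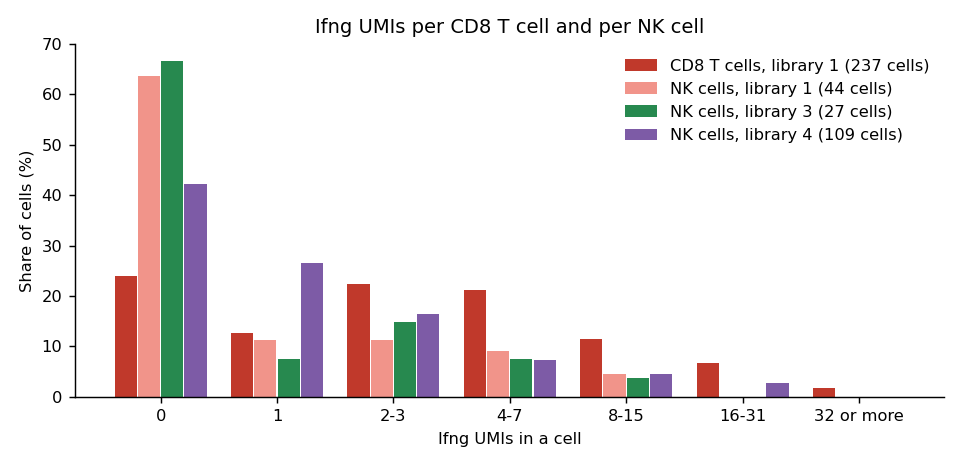
Share of cells (%) by the number of Ifng UMIs in the cell, for CD8 T cells of library 1 and NK cells of libraries 1, 3 and 4. Of the CD8 T cells 24.1% held none and 1.69% held 32 or more, a level that no NK cell reached.

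The receptor chains differed in pattern, most of all in NK and CD8 T cells, which were high in Ifngr1 and lowest in Ifngr2. Ifngr1 was highest in lymphocytes. Its level was 390 CPM in CD8 T cells of library 1, 453, 536 and 499 CPM in NK cells of libraries 1, 3 and 4, and 554, 278, 619 and 295 CPM in CD4 T cells of libraries 1 to 4. Regulatory T cells had the highest median, 547 CPM over libraries 1 to 3, but their range of 272 to 631 CPM overlapped those of NK and CD4 T cells. All 5 lymphocyte types were apart from the next type, monocytes, which ranged from 105 to 201 CPM. Macrophages (79.0 to 104 CPM), neutrophils (74.3 to 113 CPM) and endothelial cells (68.9 to 108 CPM) followed without a gap. Plasmacytoid dendritic cells and tumour cells were at the bottom with medians of 33.0 and 40.0 CPM.

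Ifngr2 was highest in myeloid cells. Monocytes stood at 162, 160, 129 and 101 CPM in libraries 1 to 4 and macrophages at 82.0, 110, 100 and 86.9 CPM, and these ranges overlapped each other and those of pericytes, dendritic cells and neutrophils. At the other end NK cells held 0, 1 and 3 UMIs in libraries 1, 3 and 4, against 127, 102 and 324 UMIs of Ifngr1. CD8 T cells of library 1 held 8 Ifngr2 UMIs, or 5.99 CPM (2.58 to 11.8), against 521 of Ifngr1. Both medians lay below those of all other types, although the interval of CD8 T cells overlapped that of unassigned T cells of library 1 (7.14 CPM, 0.864 to 25.8). Between the highest and the lowest type the medians differed 31.2-fold for Ifngr2 and 16.6-fold for Ifngr1.

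Set against each other, Ifngr2 made up 0.673% of the UMIs of both chains in NK cells (4 of 594, 0.184 to 1.72%) and 1.73% in CD8 T cells (10 of 578, 0.833 to 3.16%). The share was 4.51% in regulatory T cells, 8.44% in unassigned T cells and 10.5% in CD4 T cells. Myeloid and tumour cells were balanced by this measure, with 43.2% in monocytes, 49.4% in neutrophils, 51.1% in macrophages and 41.8% in tumour cells. The share compares cell types with each other. It is not a ratio of molecules in a cell, because the capture of the 2 transcripts can differ. Every library gave a share of at most 18.9% in each lymphocyte type and of at least 35.2% in monocytes, macrophages, neutrophils, fibroblasts and tumour cells. Libraries of 1 type did differ. Neutrophils stood at 35.2% in library 1 and at 47.1 to 53.8% in the others, CD4 T cells at 18.9% in library 4 and at 6.35 to 10.3% in the others, and dendritic cells at 31.6% in library 1 and 70.6% in library 3.

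**Figure D3:**
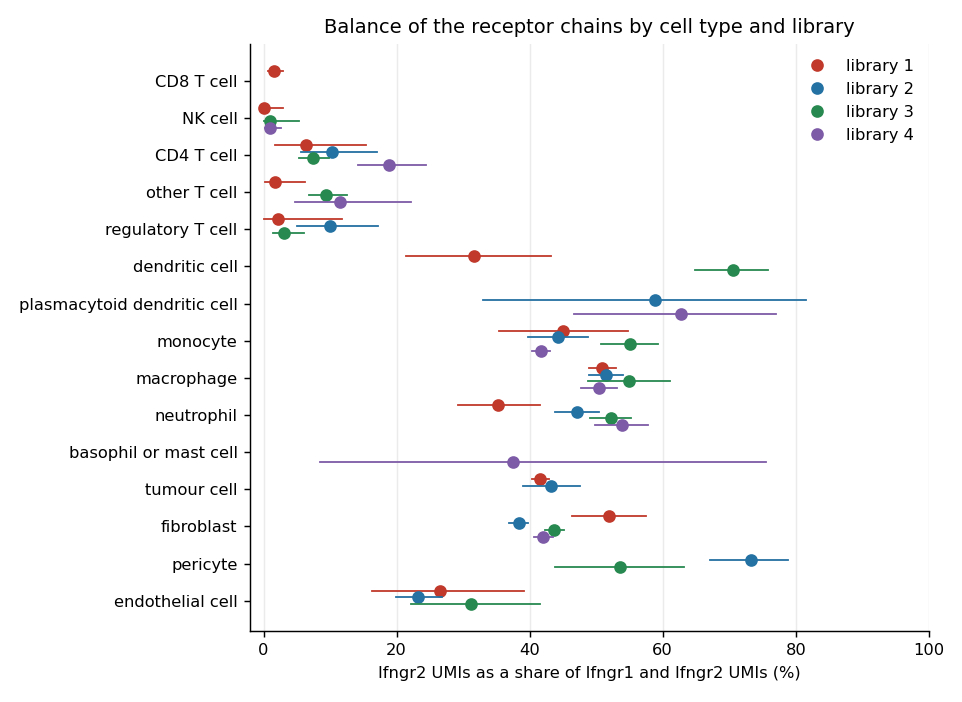
Ifngr2 UMIs as a share (%) of Ifngr1 and Ifngr2 UMIs by cell type, coloured by library, with exact 95% binomial intervals. All T and NK cell types lie at or below 18.9%, and monocytes, macrophages, neutrophils, fibroblasts and tumour cells lie at or above 35.2%.

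The dendritic cells of these libraries were different cells by their markers. In library 3 Ccr7, Fscn1 and Ccl22, markers of the migratory state, were found in 97.9%, 94.2% and 87.8% of 189 cells, and Xcr1 and Clec9a, markers of the cross-presenting subset, in 2.12% each. In library 1 Xcr1 and Clec9a were found in 72.7% and 66.7% of 33 cells and Ccr7 in 36.4%. The part of this make-up in the values of dendritic cells was not tested.

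The kinases were more even. Jak1 was found in every type, with medians from 92.8 CPM in tumour cells to 452 CPM in NK cells, and no neighbouring types were apart among the 14 pairs of neighbours. NK cells ranged from 428 to 522 CPM over libraries 1, 3 and 4. Tumour cells stood at 84.7 CPM in library 1 and 101 CPM in library 2, below the range of every lymphocyte type, macrophages and fibroblasts. Fibroblasts were at 163, 291, 284 and 332 CPM, and library 1 lay below the other 3.

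Jak2 ran another way. Dendritic cells were high, at 173 CPM in library 1 and 336 CPM in library 3, and CD4 T cells stood at 141, 204, 344 and 168 CPM. The highest median, 277 CPM, was that of basophils or mast cells and rested on 26 UMIs in 21 cells of library 4. Low levels were found in CD8 T cells (32.9 CPM in library 1), NK cells (28.5, 52.6 and 44.7 CPM), macrophages (28.1, 55.7, 41.0 and 30.0 CPM) and pericytes (32.9 and 27.7 CPM). CD8 T and NK cells were thus low in Ifngr2 and in Jak2, whereas macrophages were high in Ifngr2 and overlapped NK cells in Jak2. Jak2 made up 8.00% of the UMIs of both kinases in NK cells, 10.5% in CD8 T cells and 19.6% in macrophages, against 61.4% in dendritic cells and 41.6% in tumour cells.

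**Figure D4:**
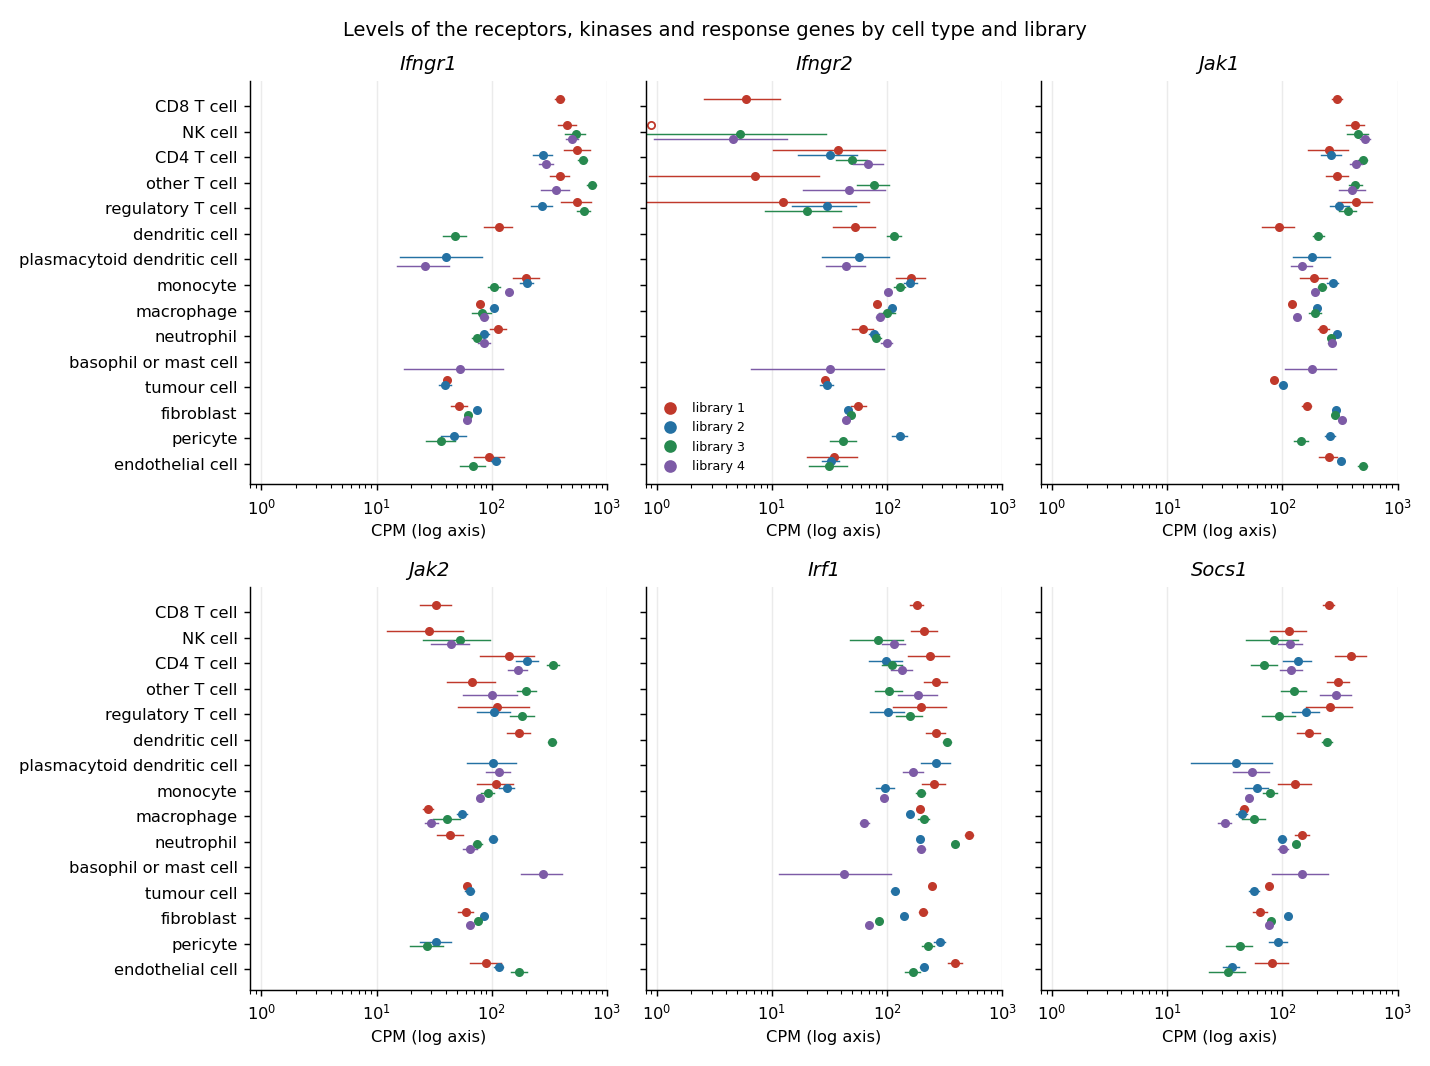
Levels in CPM (log axis) of the receptor chains, kinases and response genes by cell type, coloured by library, with exact 95% Poisson intervals, cut at the left edge, where the open circle for Ifngr2 stands for 0 UMIs. Ifngr1 separates lymphocytes (272 to 737 CPM) from the rest, and Ifngr2 lies at or below 5.99 CPM in CD8 T and NK cells.

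Irf1, the early transcription factor of the response, was high in dendritic cells and neutrophils, but not in them alone. Pericytes ranged from 227 to 286 CPM over 2 libraries and endothelial cells from 167 to 390 CPM over 3. Dendritic cells stood at 264 CPM in library 1 and 332 CPM in library 3. Neutrophils stood at 517 CPM in library 1 (480 to 556), 195 in library 2, 387 in library 3 (372 to 402) and 198 in library 4. In monocytes libraries 1 and 3 were again the higher ones, with 255, 96.1, 197 and 93.2 CPM in libraries 1 to 4, and macrophages were at 193, 159, 209 and 63.6 CPM. Fibroblasts stood at 204, 139, 85.0 and 69.8 CPM. Library 4 was thus the lowest in macrophages and fibroblasts, while libraries 2 and 4 had overlapping intervals in neutrophils and in monocytes. Tumour cells stood at 248 CPM in library 1 and 116 CPM in library 2. Neighbouring types overlapped in all but 1 of the 14 pairs.

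Socs1, which encodes the inhibitor of the kinases, was highest in T cells and dendritic cells. CD8 T cells of library 1 stood at 253 CPM (227 to 281). Unassigned T cells stood at 303, 126 and 293 CPM in libraries 1, 3 and 4, and CD4 T cells ranged from 69.7 CPM in library 3 to 394 CPM in library 1, a span over which no order with their neighbours can be given. Dendritic cells were at 171 and 244 CPM. Macrophages (46.4, 44.4, 56.3 and 31.6 CPM) and endothelial cells (81.3, 36.1 and 33.4 CPM in libraries 1 to 3) were low. In neutrophils Socs1 stood at 148, 99.7, 131 and 101 CPM, where libraries 1 and 3, the higher ones for Irf1 too, had overlapping intervals (128 to 169 and 123 to 140). In fibroblasts the order differed, with 63.6 CPM in library 1 against 112, 79.4 and 75.9 CPM, so that the library with most Irf1 had least Socs1.

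Inside the 4 types present in every library, none of the 6 members besides Ifng that could be tested was at least 2-fold above each other library in any library. Of all genes tested, library 1 so exceeded the others in 3.09% in neutrophils, 1.53% in fibroblasts, 2.41% in macrophages and 0.831% in monocytes. The shares for libraries 2, 3 and 4 were 0.0542%, 0.0135% and 0.339% in neutrophils, 0.282%, 0.0352% and 0.127% in fibroblasts, 0.358%, 0.116% and 0.106% in macrophages and 0.0647%, 0.129% and 0.0108% in monocytes. Folds were taken after adding 10 CPM to each level. Irf1 in library 1 came to 1.33-fold the next library in neutrophils, 1.43-fold in fibroblasts, 1.28-fold in monocytes and 0.93-fold in macrophages, where library 3 was higher.

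The target genes of the pathway separated the libraries more. A list of 26 targets was set side by side in the 4 types. In neutrophils 19 of them were tested and in each other type 22, because at least 100 UMIs over the 4 libraries were required. The list was chosen with earlier results of these data known. The shares of all genes given beside its counts are therefore no independent test. In macrophages 11 of the 22 were at least 2-fold above each other library in library 1, where 2.41% of 10349 genes were so called. In fibroblasts 10 of the 22 were, against 1.53% of 14198 genes, in monocytes 5 of the 22, against 0.831% of 9269 genes, and in neutrophils 3 of the 19, against 3.09% of 7385 genes. In the other libraries 1 target met the rule, Nos2 in fibroblasts of library 2 (72.9 CPM against 8.86, 8.91 and 25.5), where 0.282% of genes did. The median target of library 1 lay at 1.13 above the median of the other libraries on the log2 scale in macrophages, 1.26 in fibroblasts, 0.67 in monocytes and 0.51 in neutrophils, while the median of all genes tested lay between -0.12 and -0.04. Among targets that passed the minimum without library 1 these medians were 1.02, 1.26, 0.59 and 0.51, and those of all genes lay between -0.18 and -0.06.

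Among the 3 highest targets, Cxcl9, a chemokine that draws T cells through Cxcr3, was at 376 CPM in macrophages of library 1 and at 4.60, 0 and 2.41 CPM in libraries 2 to 4. In monocytes it stood at 351, 16.3, 0.841 and 3.02 CPM and in fibroblasts at 258, 31.6, 7.23 and 19.2 CPM. Gbp4, a guanylate-binding GTPase of cell-autonomous defence, stood at 141, 5.75, 6.95 and 4.95 CPM in macrophages and at 56.0, 7.00, 8.05 and 8.28 CPM in neutrophils. Iigp1, a GTPase of the same defence, reached 449 CPM in fibroblasts of library 1 against 46.9, 25.4 and 56.1 CPM. In the types given, library 1 stood above the other 3 for each of these genes. Cxcl9 in macrophages and monocytes and Gbp4 in macrophages passed the minimum only through library 1. They had to be high there to be tested. Gbp4 was the only target called in all 4 types. The share of all genes called in as many types was not counted, so nothing is drawn from this. Ciita, the master regulator of MHC class II, was singled out after its values were seen. It stood at 73.0 CPM in macrophages of library 1 against 5.46, 0.695 and 1.65 CPM.

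Not every target took part. Icam1, an adhesion molecule, was the lowest in neutrophils of library 1, at 184 CPM against 526, 794 and 314 CPM. Cxcl10 was highest in library 3 in neutrophils and monocytes and in library 4 in fibroblasts. In macrophages it was highest in library 1, at 674 CPM against 347, 523 and 323 CPM, but was not called. B2m was higher in library 1 in fibroblasts (1425 against 585, 480 and 640 CPM) but lower in its macrophages (2359 against 2593, 2713 and 3068 CPM). A target that passed the minimum only through library 1 had to be high there. On the UMIs of libraries 2 to 4 alone 19 targets passed in macrophages, of which 8 were called, and 21 in monocytes, of which 4 were called, where 1.99% and 0.769% of genes were. Cxcl9 then dropped out in both types, and Gbp4 and Ciita in macrophages. For fibroblasts the count was again 10 of 22, against 1.48% of genes, and for neutrophils 3 of 19, against 2.88%.

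**Figure D5:**
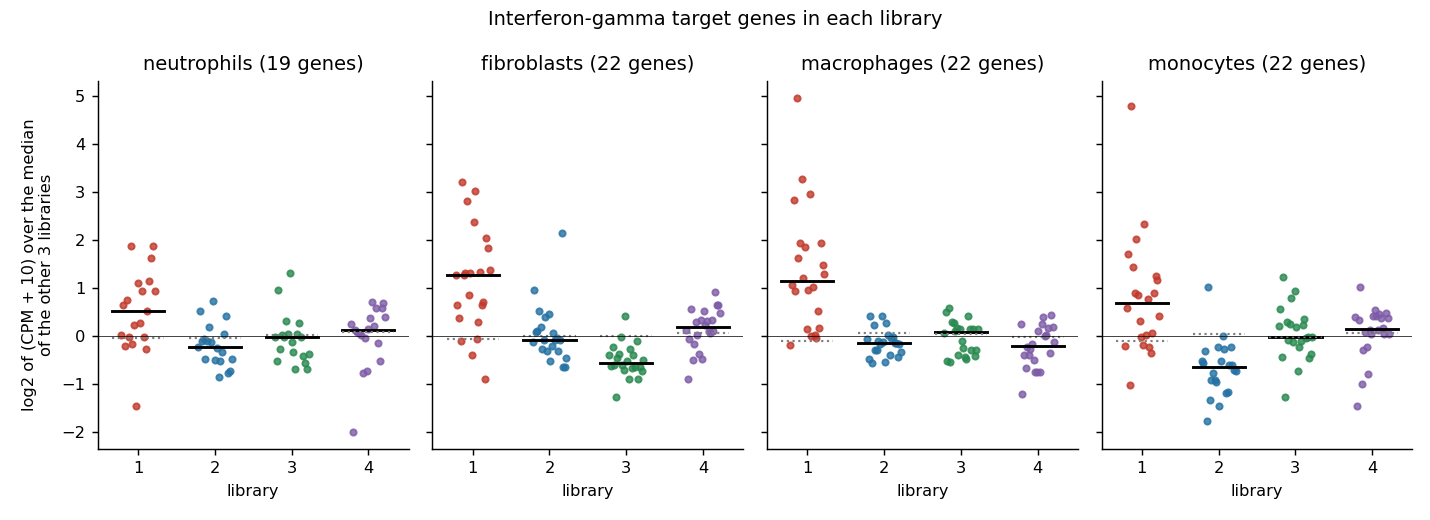
Each point is 1 tested target gene, placed at the log2 of its CPM + 10 in a library over the median of the other 3 libraries, within 4 cell types. Black bars mark the median of the targets and dotted grey bars the median of all genes tested. The points include targets that reached the minimum of 100 UMIs only through library 1, and the list was chosen with earlier results of these data known. The median target of library 1 lies between 0.51 and 1.26, above that of libraries 2 to 4 in each type.

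Library 1 also differed in the RNA of other cells. The 8 tumour cell markers together came to 567 CPM in its macrophages, against 40.8, 2.09 and 3.05 CPM in libraries 2 to 4, where 0, 6 and 4 of the 8 were at 0. In its neutrophils they came to 854 CPM against 46.5, 6.41 and 4.44, in fibroblasts to 731 against 74.0, 13.4 and 20.4, and in monocytes to 530 against 108, 11.8 and 8.07 CPM. All 8 were highest in library 1 in neutrophils and macrophages, 7 in fibroblasts and 6 in monocytes. In the tumour cells of library 1 they came to 7925 CPM. The fibroblast marker Col3a1 went the other way, at 38.8 CPM in macrophages of library 1 against 814, 311 and 438 CPM. It stood at 69.6 against 808, 336 and 543 CPM in neutrophils and at 63.0 against 621, 249 and 351 CPM in monocytes. RNA of other cells was thus found in every library and differed in its source. Of the 29 pairs of a target and a type that were called in library 1, 17 had a higher level there than in the tumour cells of that library. Pairs that were not called lay above those tumour cells at least as often, so this count does not set the called pairs apart. In neutrophils every called target lay below them, with Gbp4 at 56.0 against 93.0 CPM, Psmb8 at 493 against 1144 and Psmb9 at 291 against 349. Cxcl9 stood at 77.9 CPM in those tumour cells and at 376 CPM in macrophages, Ciita at 13.6 and 73.0 CPM, and Psmb8, a subunit of the immunoproteasome, went the other way with 1144 CPM in tumour cells and 890 CPM in macrophages. The part of RNA from tumour cells or other cells in these levels was not tested.

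The lists of genes around the pathway gave further context. Of the 12 genes listed as inducers of Ifng, 3 were highest in NK cells. They were Il12rb2 (25.0 to 89.4 CPM over libraries), Tbx21 (42.8 to 94.6 CPM) and Eomes (217 to 400 CPM). Il12b, a chain of interleukin-12, was highest in dendritic cells at 171 and 326 CPM. Il18 was highest in monocytes (63.6 to 176 CPM), and Il15 in neutrophils (87.1 to 128 CPM). Il18r1 and Il18rap were highest in basophils or mast cells, at 330 and 288 CPM from 1 library. Stat4 was highest in dendritic cells, Il12a and Runx3 in plasmacytoid dendritic cells, and Il12rb1 in unassigned T cells. Among the brakes, Socs3 and Usp18 had their highest medians in neutrophils, Socs3 at 324 to 474 CPM. Monocytes overlapped that range for Socs3, at 676, 394, 328 and 203 CPM in libraries 1 to 4. Socs3 stood higher in macrophages of library 1 than in those of the others, with 654 CPM against 268, 211 and 131 CPM.

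The genes most like each member over 31 pairs of a type and a library with at least 50 cells were found among 13464 genes, by Pearson's r of log2(CPM + 10). The pairs share libraries and depth, so the values only describe these data. For Ifng they were Nkg7 (r = 0.969), Ctsw (0.932) and Cd226 (0.912), genes of cytotoxic lymphocytes. For Ifngr1 they were Ptpn22 (0.901), Cd2 (0.881) and Ms4a4b (0.879), and for Ifngr2 Bach1 (0.787), Nampt (0.758) and Sirpa (0.734). Jak1 was most like Add3 (0.786) and Jak2 most like Ramp3 (0.823). For Irf1 the highest value was 0.646 (Hist1h1c) and for Socs1 0.735 (Bhlhe40). Among the members Ifngr1 and Jak1 were the pair with the highest r, 0.717, and Ifng and Ifngr2 the pair with the lowest, -0.69. Ifngr1 and Ifngr2 had r = -0.31, and Irf1 and Socs1 0.394.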

How the data were processed

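Tumours of the samples above were sorted for CD45 and sequenced with 10x Genomics 3′ single-cell libraries, per the labels. The authors deposited 1 matrix of raw UMI counts for the series, made with Cell Ranger on mm10 and not normalised. The methods give version 3.0.2, the matrix header 6.1.2 and the submitters' processing notes 2.1.1. The labels state 15603 cells after filtering, while the matrix held 33064 barcodes and the stated filter (300 genes, 15% mitochondrial UMIs) left 32133. The difference was not resolved. Totals per library ran from 69255999 to 108646352 UMIs.

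Each kept cell was scored on marker panels and was typed where at least 3 markers of the leading panel were detected and the runner-up score was at most 0.667 of the leading one. Doublets were not removed, except in an alternative. UMIs were summed per type and library and given as CPM, for types of at least 50 cells and libraries of at least 20. A call between libraries required 100 UMIs over the 4 libraries and a level, after adding 10 CPM, at least 2-fold above each other library. For shares of cells each cell was thinned to 1000 UMIs, which left out 1890 shallower cells. Repeating the library counts and medians on the genes that pass without library 1, and the Ifng shares without that library, was chosen after seeing the data.

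The 7 members and the lists were chosen with earlier results of these data known. The text names all members, the 3 most alike genes of each, and listed genes among the 3 highest or lowest. Other listed genes were named after their values were seen. The list of transducers is not reported here. Gate, thinning and calls were tested on simulated data. Alternatives were other cell filters, a stricter gate, Leiden clusters, removal of high Scrublet scores, thinning, means over cells and leaving out each library. Python 3.11.15, numpy 2.4.6, scipy 1.17.1, pandas 2.3.3, scanpy 1.11.5 and igraph 0.11.9 were used.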

Additional observations from a re-analysis of the deposited data

Results flagged for a closer look

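Ifng was also found outside the typed cells. The 6090 cells that no gate took held 438 Ifng UMIs, or 9.46 CPM (8.60 to 10.4), which is above the level of neutrophils, 0.349 CPM. By library the level was 36.3, 0.368, 7.20 and 7.72 CPM in libraries 1 to 4. Of these UMIs, 415 were in 329 cells with 2 or more T or NK markers, at 93.9 CPM, and 23 were in the other 5761 cells, at 0.549 CPM. No library of the 24 pairs of a gene and a cell type looked at stood apart from the other 3 by Dixon's 95% criterion.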

How the results depend on the processing

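The share of Ifng UMIs held by T and NK cells, 73.7%, moved to 59.6% after thinning, 86.7% with Leiden clusters, 81.0% with the highest doublet scores removed and 82.1% as a mean over cells, and ranged from 59.7% (without library 1) to 76.1% (without library 4) when a library was left out. Of the 7 members, 4 kept their leading cell type after thinning, 3 with Leiden clusters and 4 as means over cells, and 3 to 5 did so when a library was left out (3 without library 1 and 3 without library 4). Some of these moves were fixed in advance. No Leiden cluster was named for regulatory or unassigned T cells, the leading types of Ifngr1 and Socs1. Basophils or mast cells, which led for Jak2, fell below the minimum of 50 cells without library 1, 2 or 4. CD8 T cells did so without library 1, and Ifng then led in NK cells. Jak2 moved from basophils or mast cells to dendritic or CD4 T cells, and Ifngr1 from regulatory T cells to NK or unassigned T cells. Ifngr2 moved from monocytes to pericytes with Leiden clusters. Irf1 moved from dendritic cells to pericytes, neutrophils or endothelial cells, and Socs1 from unassigned T cells to CD8 T or dendritic cells. The highest library of Irf1 and Socs1 in the 4 types was the same in 6 to 8 of 8 cases under the 7 alternatives that keep all 4 libraries. Leaving out a library gave no value here, since the other libraries are then compared with themselves. Of the single levels recomputed, 19 moved and 56 did not, and of the single shares 4 moved and 26 did not. The causes were not tested. No paired analysis was possible because no barcode suffix is linked to a sample. Depth limits Ifngr2 in NK cells, which rests on 4 UMIs, and Ifng outside lymphocytes.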
